A study of Homo sapiens with 6 samples.

Results

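The clustered histone genes were described here in HCT116 cells, a human colorectal cancer line. The members were all genes whose symbol places them in the histone clusters HIST1, HIST2, HIST3 or HIST4 and in the families H1, H2A, H2B, H3 or H4, with names marked as pseudogene copies left out. They numbered 72 genes, held in 100 transcript rows, among the 40173 genes of the table. The rule used symbols and no measured value, although earlier results of these data were known when it was set. RNA sequencing had been done on 3 libraries of a MOCK group and 3 libraries of a CYGB group, each labelled as a biological replicate. The CYGB cells carried a lentivirus with the coding region of cytoglobin, an oxygen-binding haem protein, fused to a FLAG tag, and their genotype was labelled CYGB overexpression. The MOCK cells carried the control virus and their genotype was labelled wild type, so that lentiviral transduction and selection with puromycin were shared by both groups. Both were stable cell populations at passages 15 to 20, and no separate clone was named. The p-values below measure only the spread between these libraries.

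Clustered histone genes supply the histones that package newly copied DNA, and their transcription rises when cells enter S phase. H2A, H2B, H3 and H4 form the core around which DNA is wrapped, and H1 is the linker histone that binds where DNA enters and leaves it. Their mRNAs are usually made from genes without introns and end in a short stem-loop, bound by the protein SLBP, in place of a poly(A) tail. A minority of transcripts instead runs past the stem-loop to a poly(A) site, and replication-independent histone variants such as H1F0 and H3F3B are made from ordinary polyadenylated mRNAs outside S phase as well.

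The 16 letters of the stem-loop are shown first because they decide how the end of a histone mRNA is made, and because the transcripts counted here differed in whether they held them. A match needed the fixed letters of the histone stem-loop on the transcript strand, a pattern of GG, 3 free letters, T, a free letter, T, 2 free letters, A, 3 free letters and CC, together with 6 paired letters in the stem, with G:T pairs allowed. It was found in 45 of the 100 transcripts and in 34 of the 72 genes, and the letters without a stem matched 4 further times. There were 5 forms. The sites below, 1 for each form, are taken from the GENCODE 29 transcripts on GRCh38, with the stem-loop in capitals.
HIST3H2A: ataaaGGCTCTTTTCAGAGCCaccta
HIST1H2BD: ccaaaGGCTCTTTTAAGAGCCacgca
HIST4H4: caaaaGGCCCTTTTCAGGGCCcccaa
HIST2H4B: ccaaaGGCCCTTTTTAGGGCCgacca
HIST2H2BC: ccaaaGGCTCTTTTCAGGGCCattta

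These sites lie at chr1:228457364-228457389 (minus strand) for HIST3H2A, chr6:26158582-26158607 (plus strand) for HIST1H2BD and chr12:14770719-14770744 (minus strand) for HIST4H4. Those of HIST2H4B and HIST2H2BC lie at chr1:149860764-149860789 and chr1:149850297-149850322, both on the minus strand. The form of HIST3H2A was the commonest and was held by 18 genes of the H2A, H2B and H3 families. The forms of HIST4H4 and of HIST2H4B, with GGCCC in the left arm, were held by 5 and 3 genes, all of the H4 family. The form of HIST1H2BD was held by 5 genes of the H2B and H3 families, and that of HIST2H2BC by 3 genes.

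The transduced gene itself was as labelled. CYGB had 10, 28 and 34 counts in MOCK against 34935, 27681 and 32333 in CYGB. The epithelial markers KRT8, KRT18, KRT19 and EPCAM were present in every library, whereas VIL1 averaged 0.549 CPM. Of the 6 markers of other cell types, PTPRC, CD3E, PECAM1 and COL1A2 were near 0 and COL1A1 and DES were counted in every library, and the summed level of these markers spanned 49.8 to 57.2 CPM in MOCK and 54.2 to 60.4 CPM in CYGB. No marker list had a called gene, with medians of 0.00135 for 7 epithelial and 0.11 for 2 other tested markers on the log2 scale. Library totals ranged from 58138393 to 66035266 counts, of which 18.6 to 19.5% fell on transcripts without a gene.

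Histone mRNA made up a small part of every library. The 72 genes together had 3582, 4188 and 4027 counts in MOCK against 4037, 4056 and 4881 in CYGB, given here and below in the order of the replicate numbers. Expressed as CPM (the count relative to 1e6 counts assigned to genes, with library sizes scaled by edgeR's TMM factors), these sums were 75.7, 79.1 and 78.1 in MOCK and 79.8, 79.7 and 92.8 in CYGB. CYGB replicate 3 was the highest library, and the other CYGB libraries lay less than 1 CPM above the highest MOCK library. The means were 77.6 ± 1.76 and 84.1 ± 7.53 CPM (SD, n = 3 each), a ratio of 1.08, and no test was run on sums over the members. In bulk RNA, a change in the share of cells that make histone mRNA and a change in the amount per cell cannot be told apart.

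H2B and H2A genes held most of the histone counts, and H3 genes held the fewest. H2B took 34.9% of the histone counts, H2A 29.5%, H1 15.6%, H4 14.9% and H3 5.0%. H2B genes summed to 27.7 ± 1.0 CPM in MOCK against 28.9 ± 2.84 CPM in CYGB. For H2A it was 22.5 ± 3.14 and 25.2 ± 1.66 CPM. For H1, the linker histones, it was 11.7 ± 0.925 and 13.5 ± 2.09 CPM. H4 genes summed to 12.0 ± 1.1 and 12.2 ± 2.4 CPM. H3 genes summed to 3.73 ± 0.533 and 4.35 ± 0.316 CPM (SD, n = 3 each). The libraries of both groups overlapped in every family. Per kilobase of transcript, the order was H2B (49.2 CPM per kb), H2A (33.0), H4 (24.0), H1 (19.4) and H3 (5.26). The annotation of 32 member transcripts holds the coding region only, so that values per kilobase, here and below, rest on lengths of unlike kinds.

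The replication-independent variants had far more counts in these libraries than the clustered genes. Most clustered histone mRNA has no poly(A) tail, and how the RNA was selected is not stated in the sources used here. Whether the ratios below hold for the mRNA in the cells was not tested. The 12 variants summed to 3370, 4290 and 4040 CPM in MOCK and 3800, 3500 and 4090 CPM in CYGB. Per kilobase, they exceeded the 72 clustered genes by 14.7 to 19.1 times in single libraries. The excess was 84.7 to 139 times for H3, 23.3 to 35.4 times for H2A and 25.7 to 52.7 times for H1. H3F3B, which encodes the replacement histone H3.3, had 41109, 44327 and 41992 counts in MOCK and 32130, 40644 and 41217 in CYGB. All 3 CYGB values of H3F3B on the CPM scale lay below the MOCK values, and the log2 fold change was -0.19 ± 0.10 (SE). H1F0, a linker variant linked to resting and differentiated cells, had 28861, 90243 and 85911 counts in MOCK and 72956, 55568 and 90910 in CYGB. MOCK replicate 1 was thus far below the other libraries for H1F0.

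**Figure D1:**
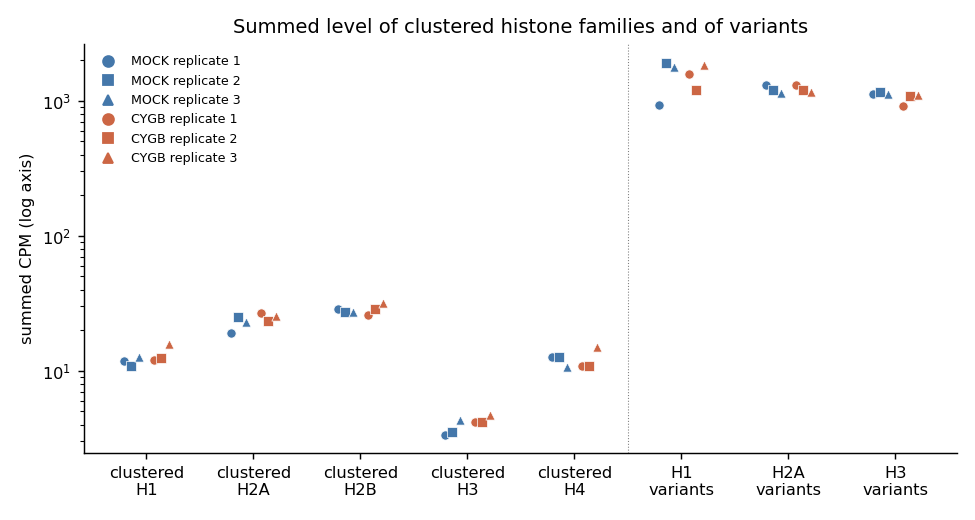
The summed level of each clustered histone family and of the H1, H2A and H3 variants is plotted in CPM on a log axis, 1 point for each of the 6 libraries. Clustered families lie between 3.36 and 31.7 CPM and the variants between 910 and 1920 CPM, and the MOCK and CYGB points overlap in each clustered family.

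Counts were concentrated in a few members. A count above 0 in at least 1 library was found for 66 of the 72 genes (91.7%, against 86.1% of all genes), and 6 genes were at 0 in all libraries. These were HIST1H1B, HIST1H2AL, HIST1H3G, HIST1H2BH, HIST1H4L and HIST1H4G, and a count of 0 allows a level of up to 0.056 to 0.0636 CPM in a single library (3 counts, counting error only). The 4 genes of highest mean CPM, HIST1H1C, HIST1H2BK, HIST3H2A and HIST1H4C, held 46.5% of the histone counts, and the first 10 held 71.4%. Only 18 members averaged over 1 CPM. By cluster, HIST1 on chromosome 6 held 62.8% of the counts, HIST2 and HIST3 on chromosome 1 held 23.0% and 13.8%, and the single gene of HIST4 on chromosome 12 held 0.424%.

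HIST1H1C, which encodes linker histone H1.2 (chr6:26055787-26056428, minus strand), had 517, 518 and 569 counts in MOCK and 554, 562 and 775 in CYGB. CYGB replicate 3 was the highest library, at 14.7 CPM, with means of 10.6 ± 0.691 and 12.2 ± 2.16 CPM and a log2 fold change of 0.21 ± 0.17 (SE). The other named H1 genes were much lower. HIST1H1E, which encodes H1.4, had 45, 48 and 66 counts in MOCK and 51, 60 and 53 in CYGB, a log2 fold change of 0.03 whose sign turned when MOCK replicate 1, MOCK replicate 2 or CYGB replicate 2 was left out. HIST1H1A had at most 8 counts in any library and was not tested.

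Among H2A genes, HIST3H2A (chr1:228456979-228457873, minus strand) was the most abundant and the leading member of its cluster. It had 379, 482 and 402 counts in MOCK and 506, 426 and 519 in CYGB, and the groups overlapped (log2 fold change 0.18 ± 0.15, SE). HIST2H2AA3 had 110, 178 and 149 counts in MOCK and 172, 205 and 220 in CYGB. Its near copy HIST2H2AA4 differed from it by at most 9 counts in any library, and none of the 400 windows of 150 bases in HIST2H2AA3 was unique to it. The pair summed to 219, 358 and 299 counts in MOCK and 345, 401 and 438 in CYGB, and on the CPM scale all CYGB libraries lay above all MOCK libraries (log2 fold change 0.42 ± 0.20, SE; adjusted p = 0.963 in edgeR's quasi-likelihood test).

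HIST1H2AC ranged widely within each group, with 106, 234 and 237 counts in MOCK and 273, 89 and 145 in CYGB. Its log2 fold change of -0.19 ± 0.48 (SE) became 0.12 without CYGB replicate 2. HIST2H2AC had 87, 74 and 109 counts in MOCK and 47, 70 and 77 in CYGB (log2 fold change -0.50 ± 0.27, SE), and 1 CYGB library lay within the MOCK range. HIST2H2AB had 10, 1 and 0 counts in MOCK and 15, 0 and 12 in CYGB, so that its log2 fold change of 1.20 had an interval from -2.48 to 4.88.

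HIST1H2BK, an H2B gene, had the highest level per length of all 72 members, at 26.5 CPM per kb, above 90.9% of the genes with a count. Its counts were 484, 464 and 471 in MOCK and 535, 508 and 630 in CYGB, and the groups overlapped on the CPM scale (log2 fold change 0.21 ± 0.15, SE). HIST1H1C (17.8 CPM per kb) and HIST1H4C (16.7) followed and did not differ beyond their spread between libraries, and HIST3H2A was lower at 9.9. HIST1H2BK and HIST1H1C were annotated by the coding region only, unlike HIST1H4C and HIST3H2A, and the part of this in the order was not tested. The RefSeq promoter of HIST1H2BK (GRCh38.p14, chr6:27146809-27147108, minus strand, 250 bases before the start to 50 after it) is shown because it belongs to the most abundant member per length and holds all 3 motifs searched. The motifs, in capitals on either strand, were TATAAA (the TATA box), the CCAAT box and the octamer ATTTGCAT.
HIST1H2BK promoter: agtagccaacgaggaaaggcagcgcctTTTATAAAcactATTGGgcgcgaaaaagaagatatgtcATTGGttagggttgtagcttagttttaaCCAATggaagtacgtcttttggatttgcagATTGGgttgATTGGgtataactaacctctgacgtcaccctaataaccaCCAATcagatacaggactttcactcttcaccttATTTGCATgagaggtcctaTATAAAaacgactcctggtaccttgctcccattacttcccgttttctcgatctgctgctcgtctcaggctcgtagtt

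A run of capitals such as TTTATAAA is an overlap of the motif on both strands. Of the 62 members matched to the promoter table, 66.1% held TATAAA, against 11.5% of all 35116 promoters of that length. CCAAT was held by 83.9% against 34.6%, in all matched H1, H2A, H2B and H3 genes and in 3 of 13 H4 genes. ATTTGCAT was held by 38.7% against 1.77%, in 12 of 16 H2B genes, 11 of 15 H2A genes, 1 of 12 H3 genes and no H1 or H4 gene. The families thus differed in the letters of their promoters as well as in level. HIST1H1C held only CCAAT and HIST3H2A likewise, so that high members did not share 1 set of motifs.

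HIST1H2BD had 250, 236 and 188 counts in MOCK and 225, 287 and 288 in CYGB (log2 fold change 0.22 ± 0.20, SE). HIST1H2BC was lower in every CYGB library on the CPM scale, with 74, 76 and 76 counts in MOCK and 33, 53 and 67 in CYGB (log2 fold change -0.59 ± 0.28, SE). HIST2H2BC, annotated as a transcribed pseudogene, had 96, 178 and 165 counts in MOCK and 86, 115 and 150 in CYGB (-0.34 ± 0.29, SE). It and 4 other members annotated as pseudogenes, HIST2H2BA, HIST2H2BB, HIST2H2BD and HIST3H2BA, held 6.33% of the histone counts. HIST2H2BF had 23, 14 and 4 counts in MOCK and 35, 28 and 40 in CYGB, and its groups did not overlap (1.27 ± 0.61, SE). HIST1H2BJ and HIST1H2BO had at most 29 and 21 counts in any library, and the intervals of both differences included 0.

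H3 members were low in all libraries. HIST1H3H had 28, 30 and 47 counts in MOCK and 55, 74 and 46 in CYGB (log2 fold change 0.72 ± 0.32, SE), with overlap between the groups. HIST1H3E had 14, 46 and 61 counts in MOCK and 26, 34 and 44 in CYGB (-0.22 ± 0.52, SE), and its sign turned to 0.20 without MOCK replicate 3. HIST2H3C had 26, 21 and 29 counts in MOCK and 23, 18 and 21 in CYGB, and none of its 1507 windows of 150 bases set it apart from the copy HIST2H3A. HIST1H3A had at most 14 counts, and its log2 fold change of -0.75 had an interval from -3.34 to 1.84.

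Among H4 genes, most of which encode the same protein, HIST1H4C (chr6:26103876-26104310, plus strand) was the most abundant. It had 396, 426 and 371 counts in MOCK and 235, 329 and 472 in CYGB. The CYGB libraries lay on both sides of the MOCK libraries, and the log2 fold change was -0.23 ± 0.26 (SE). HIST2H4B had 31, 39 and 44 counts in MOCK and 62, 67 and 73 in CYGB, without overlap, and HIST2H4A had 30, 41 and 44 in MOCK and 69, 38 and 82 in CYGB. HIST4H4, the lone gene of its cluster, had 27, 23 and 0 counts in MOCK and 13, 18 and 24 in CYGB, and the 0 was in MOCK replicate 3. Its log2 fold change of 0.09 ± 1.07 (SE) became -0.49 without that library and -0.13 without CYGB replicate 3.

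**Figure D2:**
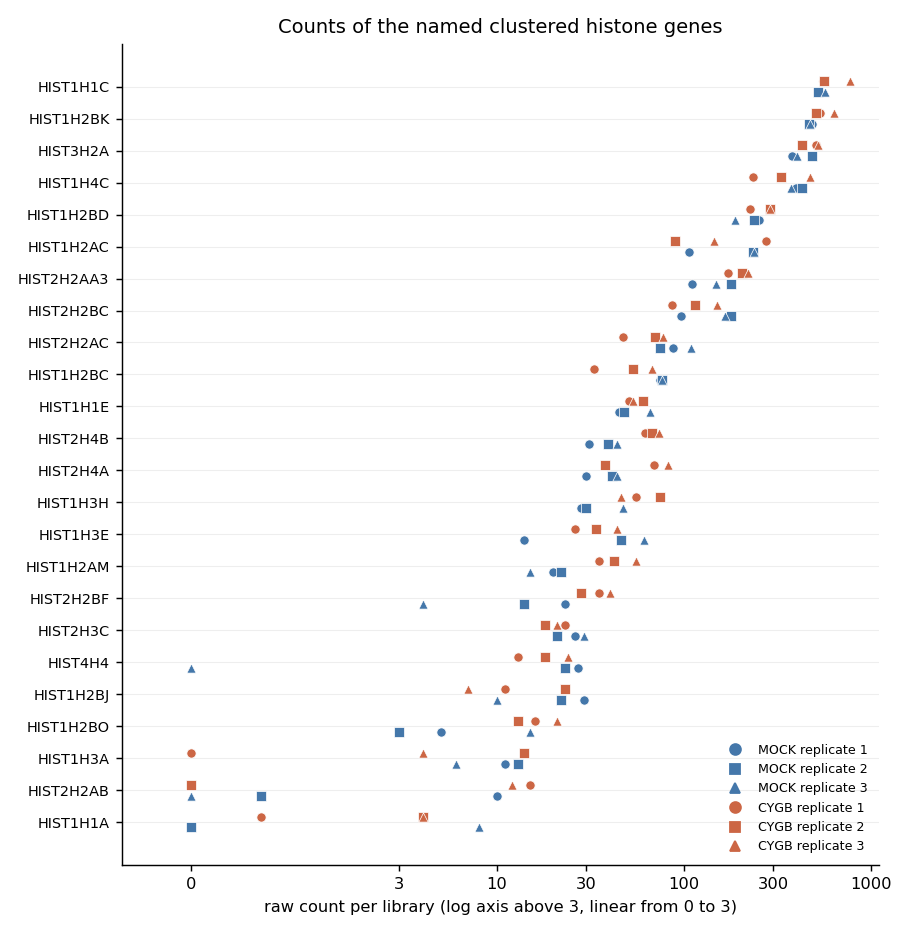
Raw counts of the named clustered histone genes are plotted for each of the 6 libraries, with genes ordered from highest to lowest mean level and the count axis logarithmic above 3 and linear from 0 to 3. HIST1H1C at the top has 517 to 775 counts, and HIST1H2AM, with 15 to 22 counts in MOCK and 35 to 55 in CYGB, is among the few genes whose groups stand apart.

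Whether CYGB overexpression changed the clustered histone genes was tested for the 40 members that passed edgeR's filter on low counts (55.6% of the members and 49.8% of all genes passed). The filter used the size of the groups but not their labels, so that enough counts in the 3 libraries of 1 group could suffice. The 32 members left out had at most 70 counts over all 6 libraries, and the lowest total of a tested member was 38. A gene was called at an unadjusted p of at most 0.01 and a ratio of at least 2 or at most 0.5, the threshold of the study's methods. HIST1H2AM was the only member called, 1 of 40, against 0.565% of the 19987 genes tested. No member had an adjusted p under 0.05 (0.055% of all tested genes did), 2 members had an unadjusted p under 0.05 (background 4.54%) and the same number had one of at most 0.01 (background 0.841%). DESeq2 gave 0 members at an adjusted p under 0.05 (0.543% of all genes with a p in that fit) and 2 at an unadjusted p under 0.05 (6.16%).

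HIST1H2AM, an H2A gene of the HIST1 cluster (chr6:27892757-27893149, minus strand), had 20, 22 and 15 counts in MOCK and 35, 42 and 55 in CYGB. All CYGB libraries lay above all MOCK libraries, with means of 0.376 ± 0.0741 and 0.854 ± 0.179 CPM (SD, n = 3 each). The log2 fold change was 1.18 ± 0.31 (SE; 95% interval 0.43 to 1.92; adjusted p = 0.963 in edgeR's quasi-likelihood test, by Benjamini and Hochberg's method). The adjusted p ranged from 0.192 with DESeq2 to 1.0 over the alternatives. The call was lost when any of the 6 libraries was left out (log2 fold change 1.01 to 1.31). In these smaller fits no member gene had an unadjusted p of at most 0.01 in edgeR's quasi-likelihood test. It was also lost when genes of low count were kept, at an unchanged log2 fold change of 1.18.

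HIST1H2AM overlaps HIST1H3J on the same strand, and 197 of its 244 windows of 150 bases also occur in that gene. HIST1H3J had 4, 9 and 0 counts in MOCK and 20, 0 and 17 in CYGB. Summed, the pair had 24, 31 and 15 counts in MOCK and 55, 42 and 72 in CYGB, with a log2 fold change of 1.24 (adjusted p = 0.963 in edgeR's quasi-likelihood test), which missed the threshold. The shared windows lie in ENST00000479986, which held 2 of the 50 counts of HIST1H3J. Its other transcript ENST00000359303 held 48, and all of its 262 windows were absent from other genes. The sum thus mostly adds counts of a separate coding region, and its miss says nothing about the call of HIST1H2AM.

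HIST2H4B was the other member with an unadjusted p under 0.05, with a log2 fold change of 0.80 ± 0.21 (SE; adjusted p = 0.963 in edgeR's quasi-likelihood test), and its ratio was under the limit. It shares all but 53 of its 2989 windows with HIST2H4A. Summed over both genes, the counts were 61, 80 and 88 in MOCK and 131, 105 and 155 in CYGB, without overlap. The log2 fold change of the sum was 0.75 ± 0.22 (SE; adjusted p = 0.963 in edgeR's quasi-likelihood test).

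The largest difference of all 40 members was that of HIST2H2BF (1.27 on the log2 scale), and HIST2H2AB and HIST1H2BO (1.09) also lay past a 2-fold change, each with an interval that included 0. HIST2H2BF, HIST2H2AB and HIST1H2BO could not have passed the filter on low counts by their MOCK libraries alone. The groups did not overlap for 8 of the 40 members, where 11.0% of all tested genes did not. They were HIST2H2AA3, HIST2H2AA4, HIST1H2BN, HIST2H4B, HIST1H2AM and HIST2H2BF, higher in CYGB (background 5.72%), and HIST3H2BB and HIST1H2BC, lower in CYGB (background 5.31%). HIST1H2BN had 67, 86 and 96 counts in MOCK and 127, 101 and 102 in CYGB (log2 fold change 0.39 ± 0.21, SE). HIST3H2BB had 122, 136 and 120 counts in MOCK and 68, 103 and 103 in CYGB (log2 fold change -0.49 ± 0.22, SE).

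The difference was above 0 for 26 of the 40 members (background 48.8%). The median log2 fold change was 0.21, with a range of -0.75 to 1.27, where that of all tested genes was -0.01. It was 0.10 for the 18 members at or above 1 CPM and 0.29 for the 22 below. By family the medians were 0.33 for 10 H2A genes, 0.23 for 9 H4 genes, 0.21 for 11 H2B genes, 0.12 for 2 H1 genes and 0.02 for 8 H3 genes. These members include near copies, which are not independent values. HIST2H2BF, HIST1H2BO, HIST2H3D, HIST1H4I, HIST1H3B, HIST4H4 and HIST1H4E could not have passed the filter on low counts by MOCK alone, but could by CYGB. Of these, HIST1H4E lay below 0 and the others above it. HIST1H3D, also above 0, could have passed by MOCK alone but not by CYGB. The share above 0 and the medians include these members. CYGB replicate 3 was the highest library for 13 of the 40 members, against 17.9% of all tested genes, and without it the median was 0.13. The 95% interval of the difference lay within a 2-fold change in either direction for 12 members, and for 9 members it included a 2-fold change in both directions.

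**Figure D3:**
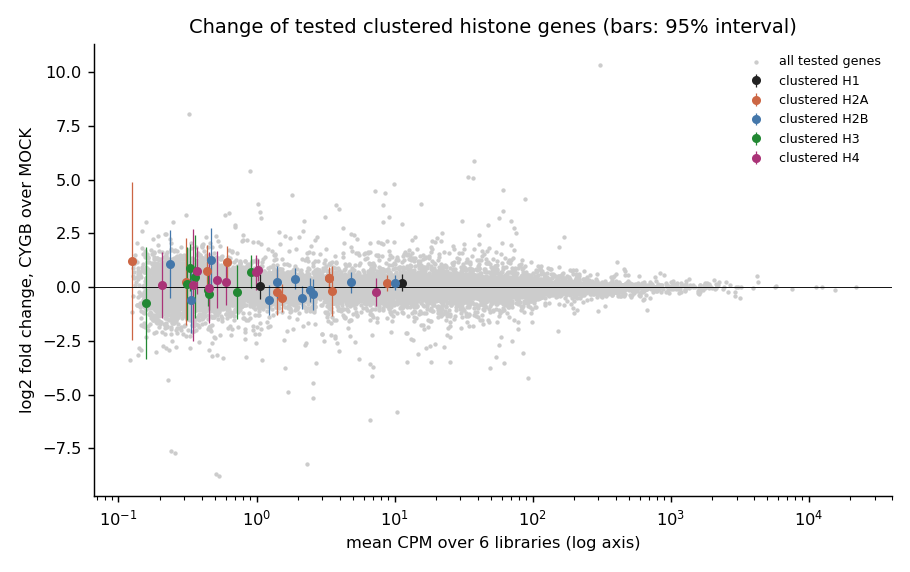
The log2 fold change of CYGB over MOCK is plotted against the mean CPM on a log axis, with grey points for the 19987 tested genes and coloured points with 95% intervals for the 40 tested histone genes. Most members lie below 10 CPM, where intervals are wide, and their differences range from -0.75 to 1.27.

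The annotated transcripts to which histone reads had been assigned differed in how they end. Transcripts that end within 60 bases of the stem-loop, a limit chosen after the values were seen, numbered 12 and held 13.7% of the histone counts (11.9 to 15.8% in single libraries). Transcripts that run past the stem-loop numbered 33 and held 32.8% (27.5 to 36.9%). A further 32 transcripts hold the coding region only, so that their ends cannot be read, and held 33.5%. The remaining 23 transcripts had no stem-loop and held 20.0%. HIST1H1C and HIST1H2BK belong to the coding-region class, and HIST3H2A runs 390 bases past its stem-loop. The share of transcripts ending near the stem-loop was 11.9, 13.4 and 13.1% in MOCK and 13.9, 15.8 and 13.8% in CYGB, without overlap, and the near copies HIST2H2AA3 and HIST2H2AA4 held 1034 and 1026 of the 3393 counts of that class. The groups overlapped in the other 3 classes. No test was run on these shares, which rest on a division of reads between transcripts that is not given in the sources used here.

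**Figure D4:**
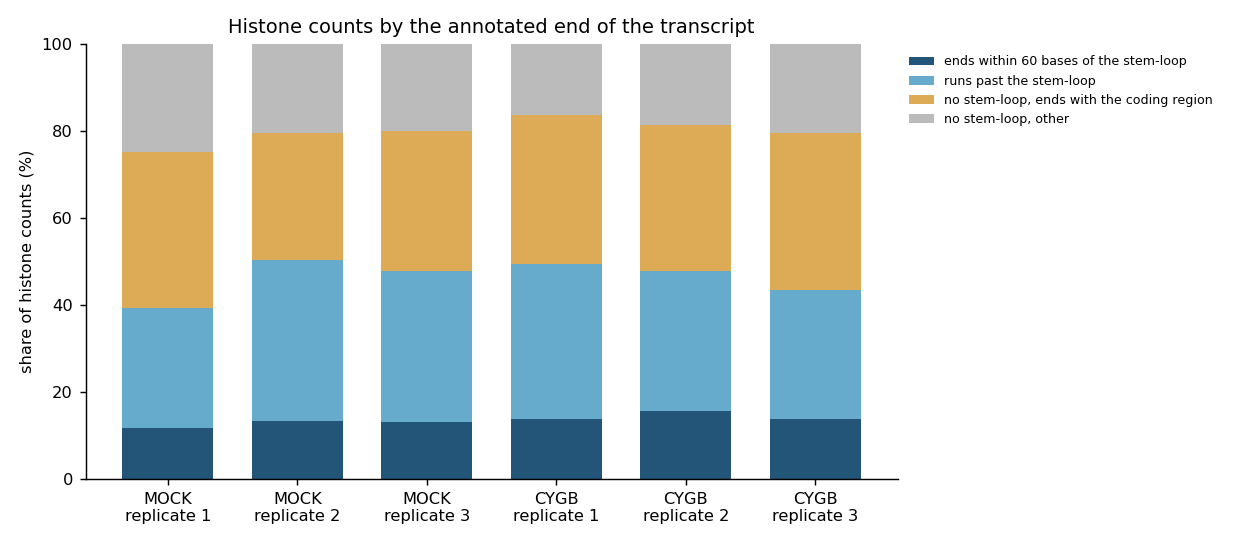
Stacked bars give the share of histone counts, in percent, held by the 4 classes of annotated transcript end in each of the 6 libraries. Transcripts that end near the stem-loop hold 11.9 to 15.8% in every library, and those running past it hold 27.5 to 36.9%.

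HIST1H2BD shows both ends in a single gene. Its longer transcript ENST00000289316, which lacks the stem-loop, had 223, 230 and 169 counts in MOCK and 187, 240 and 261 in CYGB. Its shorter transcript ENST00000377777, which ends 39 bases after the stem-loop, had 27, 6 and 19 counts in MOCK and 38, 47 and 27 in CYGB. Both hold the poly(A) signal AATAAA in their last 50 bases. The longer form thus had the higher count in every library, and the groups overlapped for it and for the shorter form on the CPM scale. Of their windows of 150 bases, 374 of 640 in the longer and 81 of 347 in the shorter form were in no other transcript. How reads had been divided between the forms was not given in the sources used here.

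Of the 45 member transcripts tested, none passed the threshold or an adjusted p of 0.05 in edgeR's quasi-likelihood test (background 1.02% and 0.015%), and 3 had an unadjusted p under 0.05 (background 3.78%). DESeq2 called 2, those of HIST1H2AM and ENST00000612061 of HIST2H4B, where it called 2.3% of all transcripts with a p. It had 4 members at an unadjusted p under 0.05 (5.74% of all transcripts) and 1 at an adjusted p under 0.05 (1.14%). The groups did not overlap for 7 of the 45 transcripts (background 10.5%). ENST00000612061 had 13, 3 and 1 counts in MOCK and 53, 66 and 47 in CYGB. It could not have passed the filter on low counts by its MOCK libraries alone. Its log2 fold change was 3.22 ± 0.91 (SE; adjusted p = 1.0 in edgeR's quasi-likelihood test), and DESeq2 gave an adjusted p of 0.0419. Without MOCK replicate 1 the log2 fold change was 4.74 (adjusted p = 0.379 in edgeR's quasi-likelihood test), which passed the threshold.

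The second transcript of HIST2H4B, ENST00000579512, had a difference of opposite sign, with 18, 36 and 42 counts in MOCK and 9, 1 and 26 in CYGB (log2 fold change -1.42 ± 0.99, SE). None of the 1545 windows of 150 bases in ENST00000612061 was unique to it, and how reads had been divided between such transcripts was not given in the sources used here. Both transcripts run past the stem-loop, by 1314 and 690 bases.

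HIST1H2AC showed the same kind of division. Its transcript ENST00000377791 had 23, 211 and 78 counts in MOCK and 21, 28 and 6 in CYGB (log2 fold change -2.45 ± 0.96, SE; adjusted p = 1.0 in edgeR's quasi-likelihood test). ENST00000314088 had 27, 23 and 159 counts in MOCK and 163, 61 and 87 in CYGB. ENST00000602637 had 56, 0 and 0 counts in MOCK and 89, 0 and 52 in CYGB. The leading transcript therefore changed between libraries of the same group, and none of the 1505 windows of ENST00000377791 was unique to it. For HIST1H2BN, ENST00000612898 had 9, 82 and 40 counts in MOCK and 89, 52 and 71 in CYGB, and ENST00000606613 had 58, 0 and 56 in MOCK and 37, 43 and 27 in CYGB.

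**Figure D5:**
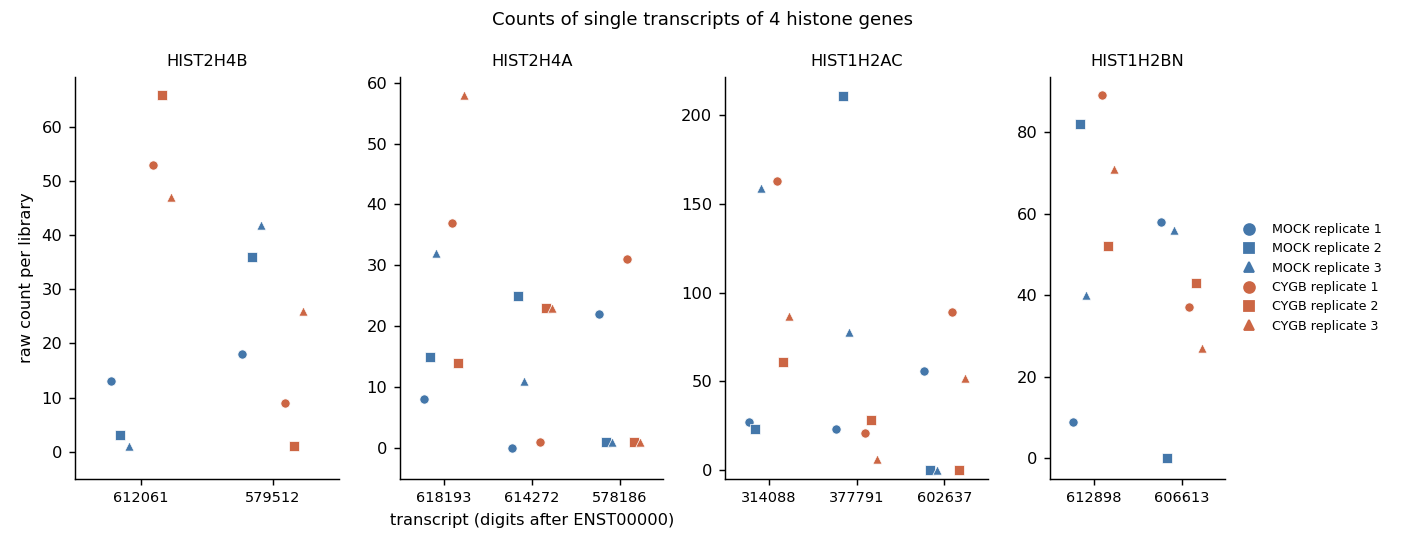
Raw counts of single transcripts are plotted for HIST2H4B, HIST2H4A, HIST1H2AC and HIST1H2BN, 1 point for each library. For HIST2H4B the CYGB points of ENST00000612061 (47 to 66 counts) lie above the MOCK points (1 to 13), whereas ENST00000579512 has 1 to 26 counts in CYGB and 18 to 42 in MOCK.

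Genes that act on histone mRNA and histone proteins were read from the same fit, and no list had a called gene or a gene with an adjusted p under 0.05. Of all tested genes, 48.8% had a difference above 0. Of 12 replication-independent variants, 5 had a difference above 0 and the median log2 fold change was -0.02. H1FX was the single variant with an unadjusted p under 0.05 (background 4.54%). It had 14952, 11519 and 6052 counts in MOCK and 6474, 6137 and 5905 in CYGB, and the groups overlapped. Of 24 genes for transcription, 3′ end processing and decay of histone mRNA, 11 lay above 0 and the median was -0.02. SLBP, which binds the stem-loop, had 8266, 7594 and 6162 counts in MOCK and 6632, 6430 and 6224 in CYGB (log2 fold change -0.22 ± 0.15, SE). NPAT, the activator of histone gene transcription, had 2733, 3012 and 2923 counts in MOCK and 2401, 3084 and 3070 in CYGB (-0.04 ± 0.12, SE, and 0.06 without CYGB replicate 1). SNRPB, a core protein of small nuclear RNPs, had a log2 fold change of 0.09, and UPF1, a helicase of histone mRNA decay, had one of -0.04 that became 0.07 without MOCK replicate 1. ERI1, an exonuclease that trims histone mRNA ends, was the gene of this list with an unadjusted p under 0.05. It had 6055, 7204 and 2868 counts in MOCK and 3096, 3026 and 2791 in CYGB, and the groups overlapped.

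Of 20 histone chaperones and deposition factors, 14 lay above 0 and the median log2 fold change was 0.10. TONSL was the gene of this list with an unadjusted p under 0.05 (background 4.54%). It had 6519, 7259 and 7971 counts in MOCK and 8882, 7880 and 9291 in CYGB (log2 fold change 0.24 ± 0.09, SE). On the CPM scale all its CYGB libraries lay above all MOCK libraries (background 5.72%). SSRP1, a subunit of the FACT complex, had 24131, 27796 and 26990 counts in MOCK and 27605, 25730 and 28917 in CYGB (0.04 ± 0.06, SE), and the H2A-H2B chaperone NAP1L1 had a log2 fold change of -0.04 ± 0.07 (SE). Of 18 S phase genes, 15 lay above 0 (background 48.8%) and the median was 0.11. Their summed CPM came to 3950, 3840 and 3850 for MOCK and to 4350, 4200 and 4190 for CYGB. These ranges did not overlap, and no test was run on the sums. The sum of CYGB replicate 3 includes MCM5, which had 3416, 2170 and 11726 counts in CYGB and 3075, 2435 and 2512 in MOCK. MCM7, a subunit of the replicative helicase, had 25117, 28804 and 27986 counts in MOCK and 31428, 28286 and 31781 in CYGB (log2 fold change 0.14 ± 0.07, SE). RRM2, a subunit of ribonucleotide reductase, had 26002, 22854 and 18711 in MOCK and 27867, 33339 and 21881 in CYGB (0.27 ± 0.21, SE). MCM2 was the S phase gene with an unadjusted p under 0.05. It had 12612, 13976 and 13988 counts in MOCK and 15728, 14435 and 16864 in CYGB (0.19 ± 0.07, SE), and its groups did not overlap on the CPM scale either. The part of these S phase levels in the histone values was not tested.

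RNAs without a poly(A) tail were read as well, since most histone mRNA has none and the sources used here do not state how the RNA was selected. Of 5 tested, 4 had a difference above 0 and the median log2 fold change was 0.42. RN7SL1 and RN7SL2, the RNA of the signal recognition particle, were abundant, at means of 305 and 376 CPM, and varied between libraries of the same group. The other tested RNAs were far lower, with means of 1.18 CPM for RN7SK, 1.12 for RPPH1 and 0.741 for RMRP. The list thus gave no single level for RNA without a tail. RN7SL1 had 22825, 15514 and 8408 counts in MOCK and 20935, 12012 and 12850 in CYGB, and RN7SL2 had 24320, 17972 and 10022 in MOCK and 31232, 14899 and 15635 in CYGB. Their log2 fold changes of -0.07 and 0.20 changed sign when single libraries were left out. RPPH1, the RNA of ribonuclease P, had 40, 40 and 47 counts in MOCK and 66, 95 and 56 in CYGB (0.75 ± 0.28, SE; adjusted p = 0.963 in edgeR's quasi-likelihood test). TERC, the RNA of telomerase, was at 0 in all 6 libraries. The part of the RNA selection in the histone levels was not tested.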

How the data were processed

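Total RNA of HCT116 cells had been made into libraries with a NEBNext Ultra RNA kit and sequenced as read pairs. Raw counts per transcript were deposited by the authors, in whole numbers. The submitters' processing notes name HISAT2, HISAT, DESeq2 and hg19, whereas the positions in the table are those of GENCODE 29 on GRCh38. The counting tool, its strand setting, the division of reads between isoforms and the RNA selection are not given in the sources used here. Columns named MK were read as MOCK.

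Transcript counts were summed per gene, and transcripts without a gene were left out. Genes and transcripts were tested over the whole table with edgeR 4.0.16 in R 4.3.3 (filterByExpr with a minimum count of 10, TMM, glmQLFit and glmQLFTest, Benjamini-Hochberg adjustment), after tests on simulated data. CPM used the scaled library sizes, and levels between genes were divided by transcript length. DESeq2 1.42.0, its size factors, other filters, a replicate block, library sizes with all transcripts and leaving out each library were the alternatives. Summing near copies, and the overlapping HIST1H2AM and HIST1H3J, was added after the data were seen. Members and lists were chosen with earlier results of these data known. Named genes were the called members, the 3 most abundant of each family, the most abundant of HIST2, HIST3 and HIST4, the 4 largest differences in each direction, and in the other lists called genes, the 2 most abundant, SLBP and NPAT. Other genes in the text were chosen after their values were seen. Replicates differed beyond sampling noise. Sequences came from GENCODE 29 transcripts and the RefSeq promoter table, which matched 62 members.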

Additional observations from a re-analysis of the deposited data

How the results depend on the processing

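The number of histone genes past the threshold was 1 with DESeq2, with its size factors and with all transcripts in the library sizes, and 0 without a filter on low counts and with a replicate block. It was also 0 with a mean count minimum of 50, which removes HIST1H2AM before the test and so says nothing about its call. Leaving out any library, which makes a group smaller, gave 0 (range 0 to 0). The number of member transcripts past the threshold was 2 with DESeq2, with 1 of them at an adjusted p under 0.05, and 0 to 1 when single libraries were left out, the 1 being without MOCK replicate 1. The median log2 fold change of the tested histone genes was 0.18 to 0.21 under the other settings and 0.13 (without CYGB replicate 3) to 0.27 (without MOCK replicate 1) when libraries were left out.

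Samples with the same replicate number did not deviate together (correlations 0.0311, 0.00468 and 0.0298), so the numbers were not taken as pairs. With the replicate block, HIST1H2AM lost its call at a log2 fold change of 1.17 (adjusted p = 0.917 in edgeR's quasi-likelihood test), the median of the members was 0.19, and RN7SL1 turned to 0.014. The cause of these changes was not tested.

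Over the named genes, 17 of the alternative values changed sign, and those not printed with their gene above arose as follows. Leaving out libraries gave -0.24 to 0.32 for H1F0, the lowest value without MOCK replicate 1 and -0.068 without CYGB replicate 3. HIST1H1E was -0.036 without MOCK replicate 1, -0.068 without MOCK replicate 2, -0.048 without CYGB replicate 2 and 0.20 at most. HIST1H2AC spanned -0.73 to 0.12, HIST1H3E -0.60 to 0.20, HIST4H4 -0.49 to 0.70, NPAT -0.10 to 0.063, UPF1 -0.094 to 0.072, RN7SL1 -0.38 to 0.39 and RN7SL2 -0.24 to 0.59.

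Depth limits most members. Only 18 genes averaged over 1 CPM, and 5 had no window of 150 bases that was absent from other genes. Of these, HIST1H3D shares its windows with AL031777.3, a gene that overlaps it on the same strand. HIST1H4K, HIST2H2AA3, HIST2H3A and HIST2H3C share theirs with copies, from which they cannot be told apart.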
